A study of Marchantia polymorpha with 12 samples.

Results

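The elements described here are the DNA transposon copies of Marchantia polymorpha whose annotation ends in class DNA and whose superfamily code is neither DTM nor DTC. They number 2961 of the 89262 transposable element (TE) copies in the tables and fall into 88 of 1264 families. By their code 1997 copies in 48 families are DTA, the hAT superfamily, 890 copies in 27 families are DTT, the Tc1/Mariner superfamily, and 74 copies in 13 families are DTH, the PIF/Harbinger superfamily. RNA was measured in thalli, the flat haploid body of this liverwort, at 14 days, by strand-specific sequencing of polyadenylated RNA. The study had 4 groups of 3 libraries in 2 experimental sets. Set 1 held the Mpknox2-1 Mpez1-1 double mutant and its Mpknox2-1 single mutant control, and set 2 held the Mpknox2-1 Mpez1-2 double mutant and a separate Mpknox2-1 control. All 12 libraries thus carried the Mpknox2-1 mutation, and no plants without it were analysed here. The comparisons ask what loss of MpE(z)1, a catalytic subunit of Polycomb Repressive Complex 2 (PRC2), does to transcripts of these elements. The column headers of the set 2 tables carry the word Tak2 and those of set 1 do not, so a difference in genetic background between the sets cannot be told apart from the set itself, and each double mutant was set against the controls of its own set.

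DTA, DTT and DTH elements move by cut and paste: a transposase, encoded by complete copies, binds the terminal inverted repeats and excises the element. Many copies in a genome are fragments or deletion derivatives that no longer encode the enzyme and can move only where another copy supplies it. In plants such copies are usually kept silent by DNA methylation and repressive histone marks, and PRC2 deposits trimethylation of lysine 27 of histone H3, a mark best known from silent developmental genes.

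Each library came with 2 tables of counts per gene and per TE copy. The second table held 1.69% to 2.22% of the counts that the first gave for genes, and is therefore read as the opposite strand for genes; which strand it gives for a TE copy is not stated. Gene counts in the first tables were 7019900 to 12098548 per library. MpE(z)1, the targeted gene, had 120, 123 and 80 counts in Mpez1-1 libraries, against 360, 304 and 248 in set 1 controls. It had 165, 217 and 204 counts in Mpez1-2 libraries, against 392, 344 and 416 in set 2 controls. MpKNOX2, mutated in all groups, had 9, 6 and 15 counts in Mpez1-1 and 3, 8 and 4 in Mpez1-2 libraries, against 0, 0 and 2 in set 1 controls and 0 in all set 2 controls. The thallus gene MpNOP1 was at 46.1 to 70.2 CPM, the counts scaled to library size, in all 12 libraries, and the sperm protamine gene MpPRM at 0 to 0.19 CPM. The 4 thallus markers MpNOP1, MpGCAM1, MpRSL1 and MpKAR together were at 100.2 to 109.9 CPM in Mpez1-1, against 110.2 to 122.1 CPM in set 1 controls, and at 87.7 to 98.7 CPM in Mpez1-2, against 121.1 to 131.8 CPM in set 2 controls. Among them MpGCAM1 had higher means in both double mutants, 8.89 and 3.9 CPM, against 4.02 and 1.26 CPM in their controls, and MpKAR lower ones, 33.3 and 29.5 CPM, against 46.6 and 44.4 CPM. MpRKD, listed here as an egg marker, was at 41.9 to 57.2 CPM in Mpez1-1, against 63.3 to 68.1 CPM in set 1 controls. In set 2 it was at 84.6 to 97.1 CPM in Mpez1-2, against 112 to 114.6 CPM in controls. As it was well read in all 12 thallus libraries, its level is not taken as a sign of egg cells. MpBNB, a regulator of germ cell formation, had 11, 19 and 16 counts in Mpez1-1 and 10, 14 and 4 counts in Mpez1-2 libraries, against 0 in all 6 controls. The 4 reproductive markers MpBNB, MpDUO1, MpPRM and MpGCS1 together were at 12.5 to 15.3 CPM in Mpez1-1, against 4.87 to 7.90 CPM in set 1 controls, and at 5.21 to 6.59 CPM in Mpez1-2, against 4.63 to 6.92 CPM in set 2 controls. Among them MpGCS1 had means of 8.64 CPM in Mpez1-1 and 3.43 CPM in Mpez1-2, against 3.49 and 3.47 CPM in their controls. MpDUO1 had means of 2.93 and 1.46 CPM, against 2.7 and 2.17 CPM. The part of a shift in cell types in the values below was not tested. In whole thalli, more cells that transcribe an element and more RNA per cell cannot be told apart.

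Most of these copies had no reads. At least 1 count in the 12 libraries of first tables was found for 612 copies, 501 of them DTA, 89 DTT and 22 DTH. The second tables had counts for 606 copies, 501 DTA, 88 DTT and 17 DTH. Of the 88 families, 52 had counts in each kind of table: 38 of DTA, 11 of DTT and 3 of DTH. Summed over all members and libraries the first tables held 2388 counts, of which 2119 were DTA, 212 DTT and 57 DTH. The second tables held 5534 counts, of which 5140 were DTA, 227 DTT and 167 DTH. DTA thus carried most of the counts in both. Copies that reached 10 counts in any library numbered 9 in the first tables, all of them DTA, and 16 in the second, 15 DTA and 1 DTH.

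The superfamilies differed in how their copies were spread over families. The largest family was TE_00001142 of DTT, with 592 copies, while 16 of the 27 DTT families had a single copy. The largest DTA family was TE_00001226 with 223 copies, and the median DTA family had 24 copies. The largest DTH family was TE_00000293 with 32 copies. A larger family did not always have more counts: TE_00001142 had 75 counts over 44 of its copies in the first tables, while the 72 copies of the DTA family TE_00000988 had 303.

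Copies of one annotation type had no counts at all. The names mark 86 members as TE_struc, taken here as found by structure, and none of them had a count in either table in any library. The same was true of all 820 TE_struc copies of the series, so these zeros are not particular to the 86 members. Whether the authors counted reads over such copies is not stated, and their zeros are not read as silence. Of the 2875 members named TE_homo, taken as found by homology, 612 had counts in the first tables (21.29%), against 19.26% of all TE_homo copies. In the second tables the shares were 21.08% of members and 19.46% of all TE_homo copies. For 13 of the TE_struc members the family field is a position, 6 of DTA, 6 of DTT and 1 of DTH. They spanned 601 to 4867 bases; the DTH copy TE_struc_507, for example, is placed at bases 19158822 to 19162701 of chromosome 5. The files name no genome build for these positions, and no sequence of these copies was used here.

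The first question was whether loss of MpE(z)1 changed the members as a whole. In the first tables their summed counts were higher in both double mutants than in the controls of the same set. They were 378, 371 and 200 in Mpez1-1 libraries, against 256, 245 and 176 in set 1 controls. After scaling this was 42.0 ± 10.3 CPM in Mpez1-1 and 22.3 ± 2.42 CPM in controls (SD, n = 3 each), a log2 fold change of 0.92 (SE 0.18, adjusted p = 0.00161 by edgeR). The Mpez1-2 libraries had 142, 160 and 206 counts, against 84, 90 and 80 in set 2 controls. This was 17.1 ± 2.13 CPM in Mpez1-2 and 7.725 ± 0.606 CPM in controls (SD, n = 3 each), a log2 fold change of 1.19 (SE 0.14, adjusted p = 1.62e-06 by edgeR). In CPM the groups did not overlap in either set. Of the 7 sums tested this way in the first tables, over these members, DTM, DTC and the other TE classes, 71.4% rose in each set.

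In the second tables the summed counts did not pass the test. They were 394, 382 and 254 in Mpez1-1 libraries, against 509, 505 and 378 in set 1 controls, or 45.9 ± 7.11 CPM in Mpez1-1 and 45.9 ± 3.24 CPM in controls (SD, n = 3 each). The log2 fold change was 0.00 (SE 0.14, adjusted p = 0.984 by edgeR). In set 2 they were 439, 437 and 505 in Mpez1-2 libraries, against 554, 622 and 555 in controls, with a log2 fold change of -0.13 (SE 0.09, adjusted p = 0.196 by edgeR). The groups overlapped in set 1. In set 2 every Mpez1-2 library was below every control in CPM, which uses scaling factors of all 12 libraries, and with factors from the 6 libraries of the set the groups overlapped. Of the 9 sums tested this way 44.4% rose and 11.1% fell in set 1, and of the 8 tested in set 2 50.0% rose and 25.0% fell. With both tables of each library added, the larger second tables weighed most and the sum over members no longer passed in either set, with log2 fold changes of 0.37 (edgeR adjusted p = 0.0569) in set 1 and 0.13 (edgeR adjusted p = 0.153) in set 2.

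The larger superfamilies of the same class are given beside these values. The DTM sum of the first tables had log2 fold changes of 1.21 (SE 0.11) in set 1 and 0.95 (SE 0.12) in set 2, and the DTC sum 0.78 (SE 0.09) and 0.65 (SE 0.07). All of these passed the test, as did the member sum. In the second tables the DTM sum had 1.31 (SE 0.12) and 0.50 (SE 0.06) and the DTC sum 0.90 (SE 0.12) and 0.51 (SE 0.07), all past the test, where the member sum passed in neither set. The difference between the member sum and the DTM and DTC sums was not tested. Members took 0.323% to 0.368% of all TE counts of the first tables in Mpez1-2 libraries, against 0.226% to 0.270% in set 2 controls. In set 1 these shares overlapped, at 0.405% to 0.643% in Mpez1-1 libraries and 0.285% to 0.574% in controls.

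By superfamily, DTA rose in the first tables and the sums of DTT and DTH did not pass or could not be tested. DTA had 359, 340 and 195 counts in Mpez1-1 libraries, against 216, 204 and 147 in set 1 controls. The log2 fold change was 1.09 (SE 0.18, adjusted p = 0.000697 by edgeR). DTA had 125, 146 and 180 counts in Mpez1-2 libraries, against 69, 75 and 63 in set 2 controls. The log2 fold change was 1.32 (SE 0.15, adjusted p = 1.41e-06 by edgeR). In CPM no Mpez1 library of either set fell within the range of its controls. Of the superfamily sums tested in the first tables, 50.0% of 12 rose in set 1 and 54.5% of 11 in set 2. With both tables of a library summed the DTA change in set 2 was 0.12 and did not pass (adjusted p = 0.181 by edgeR), and that in set 1 was 0.43. The difference between the 2 changes, set 2 minus set 1, was 0.18 (SE 0.24, adjusted p = 0.609 by edgeR).

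**Figure D1:**
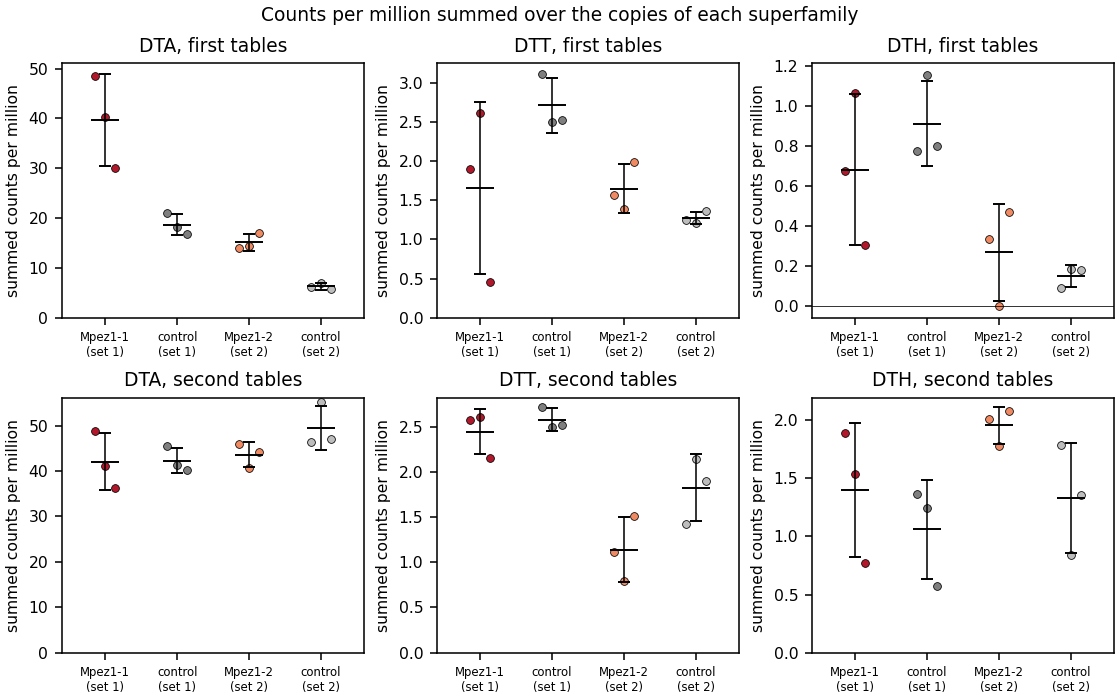
CPM summed over the copies of DTA, DTT and DTH in each library, in the first tables (upper row) and the second tables (lower row), by group; points are libraries, and the bar and whiskers are the mean ± SD of 3. In the first tables DTA is higher in each double mutant (means 39.6 and 15.2 CPM) than in its controls (18.7 and 6.30 CPM), while in the second tables DTA averages 42.1 and 43.6 CPM in the double mutants and 42.3 and 49.5 CPM in their controls.

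DTT elements had few reads in either kind of table. The first tables gave 14, 22 and 3 counts in Mpez1-1 libraries, against 32, 28 and 22 in set 1 controls, and the log2 fold change was -0.66 (SE 0.45, adjusted p = 0.242 by edgeR). Replicate 3 of Mpez1-1 was the lowest. In set 2 they had 14, 14 and 21 counts in Mpez1-2 libraries, against 14, 13 and 15 in controls, with a log2 fold change of 0.42 (SE 0.34, adjusted p = 0.301 by edgeR). The second tables gave DTT 19, 22 and 14 counts in Mpez1-1 libraries, against 28, 28 and 22 in set 1 controls, and 10, 8 and 16 in Mpez1-2 libraries, against 16, 23 and 21 in set 2 controls. Neither comparison passed, with log2 fold changes of -0.07 (SE 0.31) and -0.62 (SE 0.40). Nor did the DTA sum of these tables, at 0.00 (SE 0.14) and -0.14 (SE 0.10), where 40.0% of the 15 superfamily sums tested rose and 6.67% fell in set 1, and 50.0% of 14 rose and 14.3% fell in set 2. No DTT copy had enough reads to be tested. The most counted in the first tables was TE_homo_41760 of family TE_00000394, with 0, 0 and 0 counts in Mpez1-1 and 1, 2 and 2 in set 1 controls, and 4, 1 and 2 in Mpez1-2 and 6, 3 and 2 in set 2 controls. The family TE_00001142, with 592 copies, was tested in the second tables only. There it had 9, 11 and 6 counts in Mpez1-1, against 12, 17 and 13 in set 1 controls, and 2, 5 and 9 in Mpez1-2, against 12, 12 and 13 in set 2 controls. The log2 fold change was -0.26 (SE 0.37) in set 1 and -1.01 (SE 0.55) in set 2, and neither passed (edgeR adjusted p = 0.714 and 0.148).

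DTH elements were the scarcest. The first tables gave 5, 9 and 2 counts in Mpez1-1 libraries, against 8, 13 and 7 in set 1 controls, and 3, 0 and 5 in Mpez1-2 libraries, against 1, 2 and 2 in set 2 controls. These groups overlapped, and the sum was too low to be tested. The DTH sum of the second tables was tested and did not pass, with log2 fold changes of 0.40 (SE 0.49, adjusted p = 0.596 by edgeR) in set 1 and 0.60 (SE 0.39, adjusted p = 0.171 by edgeR) in set 2. Most of those counts, 118 of 167, were of the single counted copy of family TE_00000878, TE_homo_12119. It had 5, 6 and 3 counts in Mpez1-1 libraries, against 6, 7 and 3 in set 1 controls. It had 17, 15 and 17 counts in Mpez1-2 libraries, against 16, 9 and 14 in set 2 controls, with a log2 fold change of 0.53 (SE 0.38, adjusted p = 0.282 by edgeR).

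The rise in the first tables was then followed to single copies. Few had enough reads for a test: 5 of the 2961 members in set 1 and 2 in set 2, all DTA. All 5 rose in set 1, where 53.8% of the 318 TE copies tested rose and 6.29% fell, and both rose in set 2, where 47.3% of 315 rose and 2.86% fell. Each of these copies reached the count filter through its double mutant libraries and would not have been tested had it stayed at its control level, so the count of calls says little about the other members.

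TE_homo_70355, of family TE_00001034, was the most counted of those near silent in controls. It had 33, 39 and 31 counts in Mpez1-1 libraries, against 1, 0 and 0 in set 1 controls. The pooled ratio was 140, with an exact 95% interval of 24.6 to 5578 (edgeR adjusted p = 3.29e-05). In set 2 it had 8, 11 and 12 counts in Mpez1-2 libraries, against 0, 0 and 0 in controls. It was below the count filter there and so has no test, and its level was at least 11.9-fold higher, taking 3 counts over the 3 controls as the floor. Every double mutant library lay above every control library of its set.

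TE_homo_32417, of family TE_00000722, rose in both sets. It had 18, 25 and 16 counts in Mpez1-1 libraries and 16, 11 and 14 counts in Mpez1-2 libraries, against 0 counts in all 6 controls. It was at least 26.7-fold higher in Mpez1-1 (edgeR adjusted p = 0.000148) and at least 15.7-fold higher in Mpez1-2 (edgeR adjusted p = 9.37e-05).

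TE_homo_70230, of family TE_00000988, was the most counted member of the first tables and was also read in controls. It had 38, 37 and 21 counts in Mpez1-1 libraries, against 8, 11 and 5 in set 1 controls, a log2 fold change of 2.42 (SE 0.32, adjusted p = 0.000284 by edgeR). It had 14, 14 and 22 counts in Mpez1-2 libraries, against 5, 2 and 1 in set 2 controls, a log2 fold change of 2.78 (SE 0.54, adjusted p = 0.000578 by edgeR). The groups did not overlap in either set, and the difference between the 2 changes was 0.31 (SE 0.58, adjusted p = 0.866 by edgeR).

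The other 2 called copies rose in set 1 and were not tested within set 2. TE_homo_68773, of family TE_00000523, had 11, 18 and 8 counts in Mpez1-1 libraries, against 1, 3 and 2 in set 1 controls, a log2 fold change of 2.96 (SE 0.49, adjusted p = 0.00075 by edgeR). In set 2 it had 1, 5 and 4 counts in Mpez1-2 and 1, 3 and 5 in controls, so those groups overlapped. The difference between its 2 changes was -2.68 (SE 0.95), with an unadjusted p of 0.0143 and an adjusted p of 0.13 by edgeR. TE_homo_54394, of family TE_00000018, had 13, 19 and 26 counts in Mpez1-1 libraries, against 9, 8 and 3 in set 1 controls, a log2 fold change of 1.99 (SE 0.46, adjusted p = 0.0045 by edgeR). In set 2 it had 4, 2 and 4 counts in Mpez1-2 and 0, 4 and 2 in controls, and those groups overlapped. Of the 6 members tested for a difference between the sets none passed by edgeR or by DESeq2, and 1 had an unadjusted p under 0.05 by edgeR. Over all 466 TE copies in that fit 1.93% had a larger change in set 2 and 1.07% a smaller one.

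**Figure D2:**
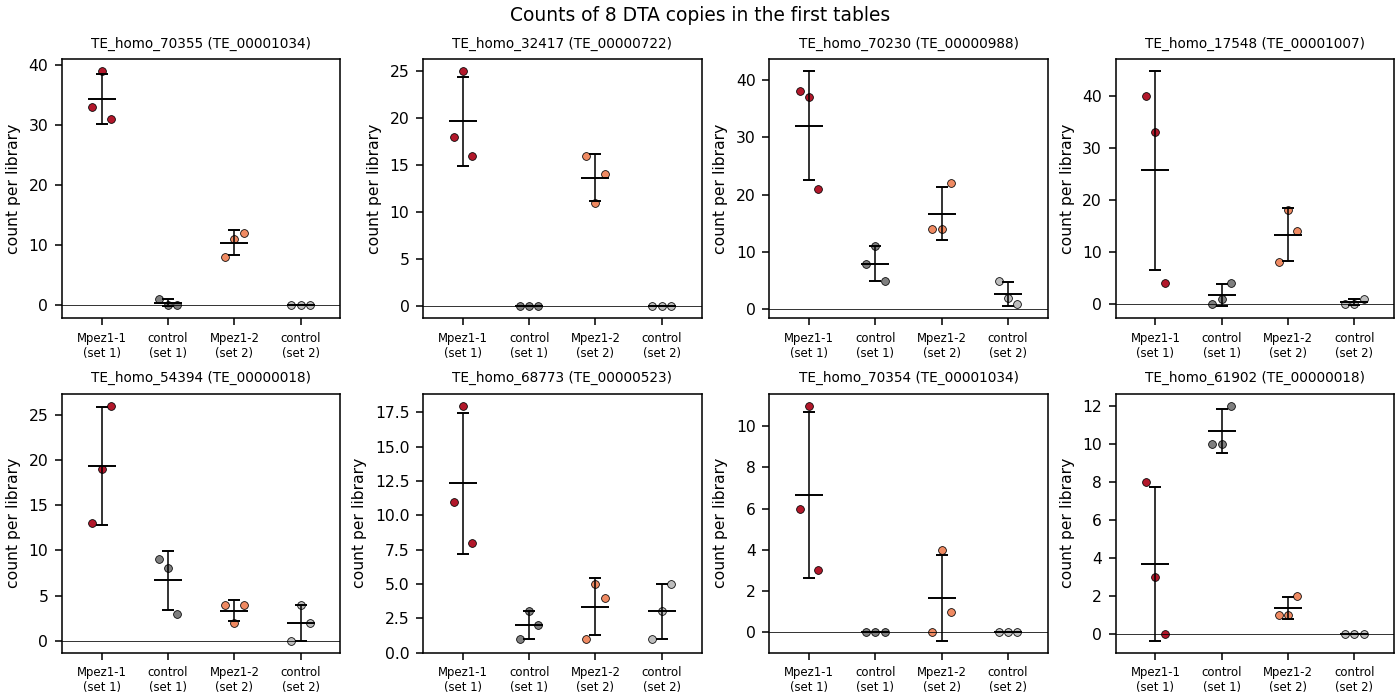
Counts per library of 8 DTA copies in the first tables, by group; points are libraries, and the bar and whiskers are the mean ± SD of 3. TE_homo_70355 and TE_homo_32417 have 8 or more counts in every double mutant library and at most 1 in any control. TE_homo_61902 has more counts in set 1 controls than in Mpez1-1, though in CPM these groups overlap.

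3 further copies of the first tables stand out by their counts and were below the filter in both sets. They were picked after their values were seen, except TE_homo_17548, which the naming rule took for its abundance. TE_homo_17548, of family TE_00001007, had 40, 33 and 4 counts in Mpez1-1 libraries, against 0, 1 and 4 in set 1 controls, so that replicate 3 of Mpez1-1 had the same count as 1 control. In set 2 it had 8, 18 and 14 counts in Mpez1-2 libraries, against 0, 0 and 1 in controls. TE_homo_70354, of the same family as TE_homo_70355, had 6, 11 and 3 counts in Mpez1-1 and 0, 4 and 1 in Mpez1-2 libraries, against 0 in all 6 controls. TE_homo_61902, of the same family as TE_homo_54394, leaned the other way in set 1, with 8, 3 and 0 counts in Mpez1-1 libraries, against 10, 10 and 12 in controls, a pooled ratio of 0.467 (exact 95% interval 0.212 to 0.951), though in CPM the highest Mpez1-1 library overlapped the controls. In set 2 it had 1, 1 and 2 counts in Mpez1-2 libraries and 0 in all 3 controls. Within this family, then, the reads did not all follow the called copy.

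Copies that were silent in all 6 controls and read in both double mutants were few. Among first-table counts 8 members had 0 in the 6 controls and at least 3 counts in each double mutant group, and no member showed the reverse. The share of all TE copies that meets this rule was not computed, so these numbers are not read as particular to the members. Of the 8, 6 belong to TE_00000722. Of these 6, TE_homo_32417 had the most reads, and TE_homo_32440 and TE_homo_77770 had the same count in each of the 12 libraries, so they cannot be counted as separate observations. TE_homo_57794, TE_homo_57816 and TE_homo_57916 were also alike, with 1, 2 and 2, 1, 2 and 2, and 1, 1 and 2 counts in Mpez1-1 libraries. Whether they share reads was not tested, so the 6 may stand for fewer sources. The others of the 8 are TE_homo_70354 and TE_homo_77501, the second of family TE_00000988. The same rule took 1 member of the second tables. With any count accepted, 205 members of the first tables were read in double mutants and in no control, and 243 in controls and in no double mutant library. Sparse reads were therefore no less common on the control side, where the libraries were on the whole deeper.

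Much of the difference in the member sum came from the called copies, though not all of it. The 5 called copies held 37.2% of all member counts in Mpez1-1, against 7.53% in set 1 controls, and 27.95% in Mpez1-2, against 9.055% in set 2 controls. They had 113, 138 and 102 counts in Mpez1-1 libraries, against 19, 22 and 10 in set 1 controls. The other 2956 members had 265, 233 and 98 counts in Mpez1-1 libraries, against 237, 223 and 166 in controls, a pooled ratio of 1.29 (exact 95% interval 1.15 to 1.45, counting error only). In CPM these groups overlapped, and replicate 3 of Mpez1-1 was the lowest of its group. In set 2 the other members had 99, 117 and 150 counts in Mpez1-2 libraries, against 78, 81 and 72 in controls, a pooled ratio of 1.82 (exact 95% interval 1.539 to 2.155), and the groups did not overlap. TE_homo_17548, which was not tested within a set, is among those other members. Without it as well the pooled ratio was 1.135 in set 1 (exact 95% interval 1.008 to 1.277), and the groups overlapped. In set 2 that ratio was 1.628 (exact 95% interval 1.371 to 1.936), and the groups did not overlap. The called copies were chosen on these values, so their share is a description.

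**Figure D3:**
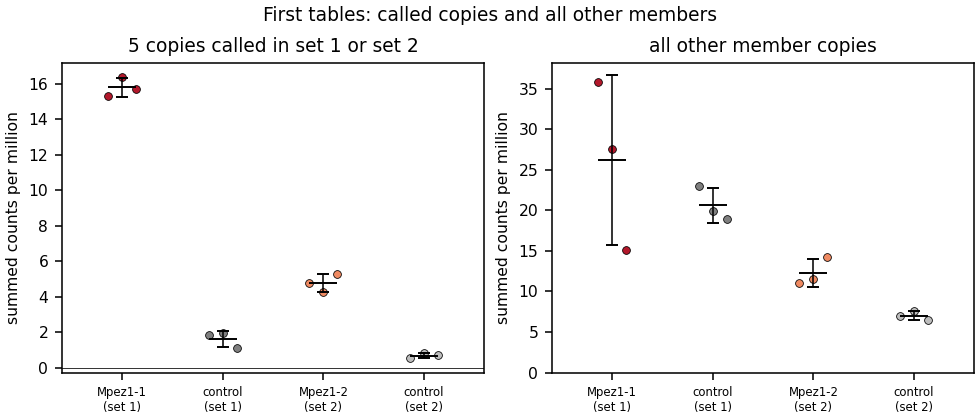
Summed CPM in the first tables of the 5 DTA copies called in set 1 or set 2 (left) and of the other 2956 members (right), by group; points are libraries, and the bar and whiskers are the mean ± SD of 3. The called copies are at 15.8 and 4.79 CPM on average in the double mutants and 1.65 and 0.701 CPM in their controls, while for the other members the set 1 groups overlap (26.2 CPM in Mpez1-1 and 20.6 CPM in controls).

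Replicate 3 of Mpez1-1 stood apart from its group in breadth as well. It had counts for 69 members in the first tables, against 167 and 149 in the other Mpez1-1 libraries and 124 to 172 in set 1 controls. In set 2 the numbers were 64 to 72 in Mpez1-2 libraries and 45 to 53 in controls. Without that library the member sum of the first tables had a log2 fold change of 1.09 in set 1, against 0.92 with it.

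Summed over their copies, 7 families were tested in set 1 of the first tables and 5 rose, where 39.2% of the 212 TE families tested rose and 2.36% fell. In set 2, 3 were tested and 2 rose, against 50.6% of 166 families that rose and 3.61% that fell. All were DTA. As with the copies, several of these families had so few control reads that they reached the filter through the double mutant libraries, TE_00000722 and TE_00001034 among them, so these counts of calls say little about the other families. TE_00000722 had 28, 50 and 31 counts in Mpez1-1 libraries, against 4, 2 and 3 in set 1 controls, a log2 fold change of 3.96 (SE 0.38, adjusted p = 5.62e-05 by edgeR). It had 27, 24 and 34 counts in Mpez1-2 libraries, against 1, 8 and 0 in set 2 controls, a log2 fold change of 3.38 (SE 0.62, adjusted p = 0.000447 by edgeR). The groups did not overlap in either set. TE_homo_32417 held 47.2% of its counts, and 22 of its 67 copies had counts. Near-identical copies may share reads, so how many of these copies were separate sources of the rise cannot be told.

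TE_00000988 had 62, 46 and 35 counts in Mpez1-1 libraries, against 15, 29 and 18 in set 1 controls, a log2 fold change of 1.65 (SE 0.30, adjusted p = 0.00172 by edgeR). It had 21, 23 and 40 counts in Mpez1-2 libraries, against 8, 2 and 4 in set 2 controls, a log2 fold change of 2.74 (SE 0.45, adjusted p = 0.000117 by edgeR). Of its counts 58.8% were of TE_homo_70230. TE_00001034 had 41, 50 and 34 counts in Mpez1-1 libraries, against 4, 1 and 1 in set 1 controls, a log2 fold change of 4.72 (SE 0.41, adjusted p = 3.36e-05 by edgeR). In set 2 it had 8, 16 and 15 counts in Mpez1-2 libraries and 0 in all 3 controls, at least 14.9-fold higher and not tested. TE_homo_70355 held 79.4% of the counts of this family. In all 3 families every double mutant library lay above every control of its set.

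The remaining called families rose in set 1. TE_00000523 had a log2 fold change of 2.08 (SE 0.44, adjusted p = 0.00373 by edgeR), with 68.9% of its counts on TE_homo_68773. TE_00000018 had 30, 34 and 30 counts in Mpez1-1 libraries, against 23, 28 and 24 in set 1 controls, and a log2 fold change of 0.77 (SE 0.22, adjusted p = 0.0217 by edgeR). TE_00000788 and TE_00001226 did not pass in set 1, with log2 fold changes of -0.40 (SE 0.49) and 0.11 (SE 0.40), nor did TE_00001268 in set 2, at -0.58 (SE 0.44). Each called family thus had a called copy that held a large share of its reads. No family passed the test of a difference between the sets by edgeR or by DESeq2, at an unadjusted p under 0.05 none of the 9 tested did by edgeR, and over the 239 TE families in that fit 2.93% had a larger and 3.35% a smaller change in set 2.

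**Figure D4:**
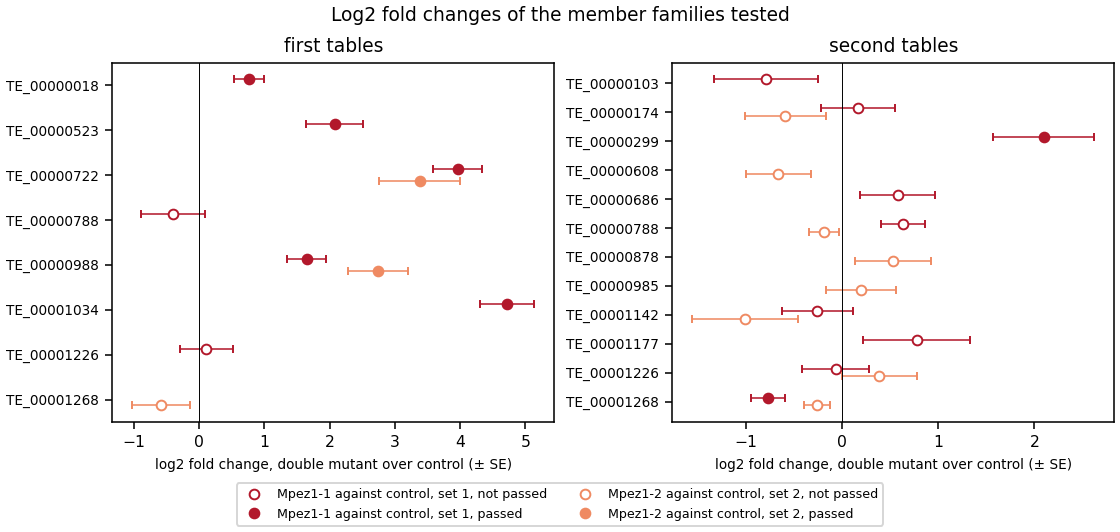
Log2 fold changes (± SE) of the member families tested in each set, double mutant over control, in the first tables (left) and the second tables (right); filled points passed an adjusted p of 0.05 and open points did not. In the first tables TE_00000722 (3.96 and 3.38) and TE_00000988 (1.65 and 2.74) passed in both sets, while in the second tables TE_00000299 rose and TE_00001268 fell in set 1 and no family passed in set 2.

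The second tables gave another picture of the members. In set 1, 5 copies were tested, none rose and 1 fell, where 41.0% of the 1178 TE copies tested rose and 11.3% fell. At an unadjusted p under 0.05 by edgeR 2 members had a higher level, and DESeq2 called no rise either. The lack of a rise was not stable, as 1 copy rose in 5 of 6 fits that left out a library. The fit of all 12 libraries and the fit with no filter on low counts also called 1 risen copy. In set 2, 9 copies were tested and none was called in either direction by edgeR or by DESeq2, nor at an unadjusted p under 0.05 by edgeR, where 41.7% of 1204 rose and 4.15% fell. The most counted member of either kind of table was TE_homo_35150, of family TE_00001268. It had 71, 86 and 68 counts in Mpez1-1 libraries, against 171, 221 and 132 in set 1 controls. This was 10.1 ± 0.445 CPM in Mpez1-1 and 17.2 ± 2.33 CPM in controls (SD, n = 3 each), and it fell with a log2 fold change of -0.76 (SE 0.18, adjusted p = 0.00784 by edgeR). It had 175, 165 and 184 counts in Mpez1-2 libraries, against 238, 255 and 232 in set 2 controls, with a log2 fold change of -0.26 (SE 0.14, adjusted p = 0.144 by edgeR). In CPM the groups did not overlap in either set. Without a filter on low counts the set 1 call was lost (edgeR adjusted p = 0.0702). With the second tables scaled on their own totals the set 2 change passed, at -0.42 (edgeR adjusted p = 0.0263).

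TE_homo_35150 held 99.5% of the counts of TE_00001268 in the second tables, which had a log2 fold change of -0.77 in set 1 (SE 0.18, adjusted p = 0.00873 by edgeR). Of the 9 families tested in set 1, this was the 1 that fell and TE_00000299 the 1 that rose, where 29.9% of 271 rose and 7.01% fell. TE_00000299 had 17, 11 and 14 counts in Mpez1-1 libraries, against 5, 2 and 6 in set 1 controls, a log2 fold change of 2.09 (SE 0.53, adjusted p = 0.0124 by edgeR). This family reached the count filter through the Mpez1-1 libraries and would not have been tested at its control level. Without replicate 2 of the set 1 controls its adjusted p was 0.0508. Most of its counts, 61.1%, were of TE_homo_68925, which had 10, 8 and 14 counts in Mpez1-1 and 8, 8 and 7 counts in Mpez1-2 libraries, against 0 in all 6 controls. That copy was below the filter, and was at least 14.5-fold higher in Mpez1-1 and at least 8.81-fold higher in Mpez1-2. It is the 1 member of the second tables that was silent in all controls and read in both double mutants. In set 2 none of the 8 families tested was called by edgeR or by DESeq2, nor at an unadjusted p under 0.05 by edgeR, where 34.8% of 227 rose and 5.29% fell.

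TE_homo_26525, of family TE_00000788, was the next most counted. It had 42, 38 and 34 counts in Mpez1-1 libraries, against 39, 36 and 23 in set 1 controls, a log2 fold change of 0.68 (SE 0.28, adjusted p = 0.0729 by edgeR). It had 75, 75 and 88 counts in Mpez1-2 libraries, against 95, 116 and 119 in set 2 controls, a log2 fold change of -0.27 (SE 0.19, adjusted p = 0.261 by edgeR). In CPM the groups did not overlap in either set, and with factors from the 6 libraries of set 2 alone they overlapped there. TE_00000788, summed over its copies, had log2 fold changes of 0.64 (SE 0.23, adjusted p = 0.0564 by edgeR) in set 1 and -0.19 (SE 0.15, adjusted p = 0.363 by edgeR) in set 2. TE_homo_68715 of the same family had 13, 19 and 15 counts in Mpez1-1 libraries, against 12, 9 and 12 in set 1 controls, a log2 fold change of 0.93 (SE 0.35, adjusted p = 0.0583 by edgeR).

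The test of a difference between the sets passed for 1 of 11 copies and 1 of 12 families in the second tables, both with a smaller change in set 2. Over all TE copies in that fit 9.21% of 1476 had a larger and 5.01% a smaller change in set 2, and over families 5.94% of 286 had a larger and 5.24% a smaller one. The copy was TE_homo_26525, with a difference of -0.99 (SE 0.32, adjusted p = 0.0483 by edgeR), and the family was TE_00000788, with -0.87 (SE 0.26, adjusted p = 0.032 by edgeR). The call for TE_homo_26525 was lost whichever of the 12 libraries was left out, and that for TE_00000788 in 9 of 12 such fits. With the replicate number as a block neither passed (adjusted p = 0.0915 and 0.0594 by edgeR).

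**Figure D5:**
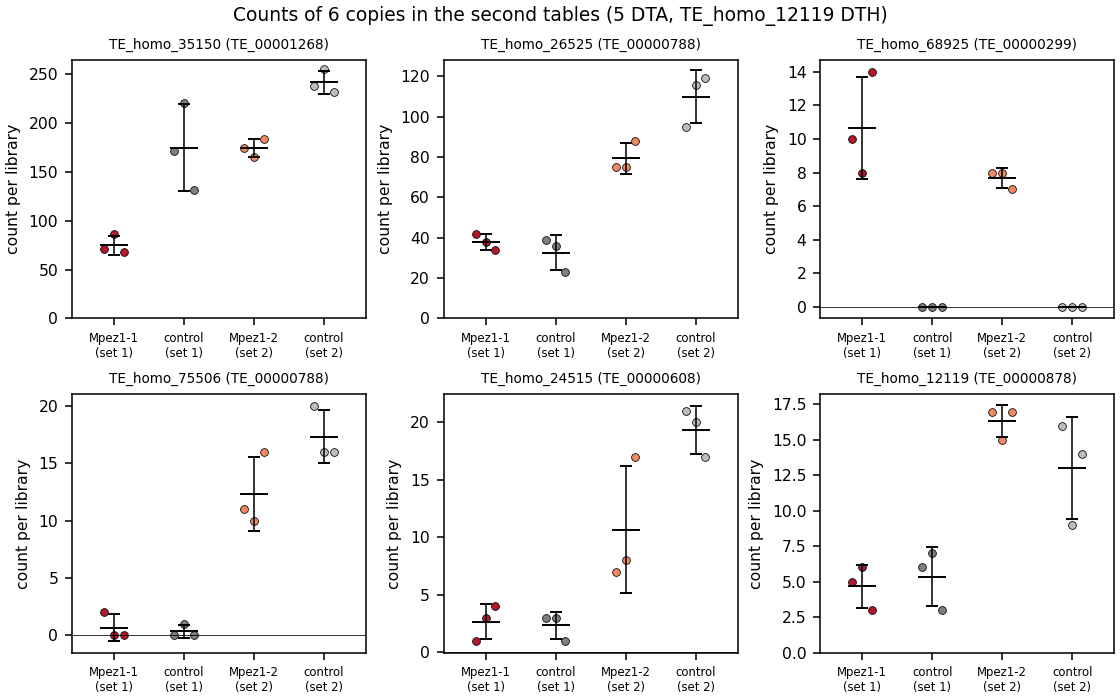
Counts per library of 6 copies in the second tables, by group; points are libraries, and the bar and whiskers are the mean ± SD of 3. TE_homo_35150 has fewer counts in Mpez1-1 (68 to 86) than in set 1 controls (132 to 221), TE_homo_68925 has counts in double mutants only, and TE_homo_75506 has at most 2 counts in any set 1 library and 10 or more in every set 2 library.

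The sets differed from each other in which copies were read, also between the 2 control groups, both labelled Mpknox2-1. This contrast was added after the data had been seen. In the first tables the members summed to 7.725 ± 0.606 CPM in set 2 controls and 22.3 ± 2.42 CPM in set 1 controls (SD, n = 3 each), a log2 difference of -1.53 (SE 0.18, adjusted p = 2.2e-06 by edgeR). Of the 7 sums tested 71.4% were lower in set 2 controls. Both DTA, at -1.57 (SE 0.18), and DTT, at -1.08 (SE 0.39), were lower, as were 83.3% of the 12 superfamily sums tested, and 8.33% were higher. Of 9 families tested 5 were lower, where 48.5% of 239 were lower and 11.7% higher. Among these calls TE_00000018 and TE_00001034 reached the count filter through set 1 libraries. TE_00001034 had 4, 1 and 1 counts in set 1 controls, against 0, 0 and 0 in set 2 controls. The number of families called therefore says little about the others. Of 6 copies 1 was lower, TE_homo_70230 at -1.65 (SE 0.52), where 18.7% of 466 were lower and 14.2% higher. For the second tables the sum did not pass, at 0.20 (SE 0.12, adjusted p = 0.126 by edgeR). Of the 11 members tested there, 7 were higher and 2 lower in set 2 controls, where 17.8% of 1476 TE copies were higher and 30.3% lower. Most of the 7 had few set 1 counts and reached the count filter through set 2 libraries, TE_homo_75506 and TE_homo_24515 among them. The 2 lower ones reached it through set 1 libraries. These counts of calls therefore say little about the other members. Of 12 families 4 were higher and 2 lower, where 15.4% of 286 were higher and 36.0% lower. Among these calls TE_00000608 reached the count filter through set 2 libraries and TE_00000103 through set 1 libraries. The family calls therefore say little about the other families as well. TE_homo_75506 of TE_00000788 had 20, 16 and 16 counts in set 2 controls, against 0, 1 and 0 in set 1 controls, a log2 difference of 5.12 (SE 0.85, adjusted p = 0.000146 by edgeR). TE_homo_24515 of TE_00000608 had 21, 20 and 17 counts in set 2 controls, against 3, 3 and 1 in set 1 controls, a log2 difference of 2.87 (SE 0.56, adjusted p = 0.00059 by edgeR). TE_homo_26525 was also higher in set 2 controls, by 1.64 (SE 0.23, adjusted p = 2.47e-05 by edgeR). The calls for weaker members depend on single libraries: without any 1 of the set 1 controls 4 members were higher, and the number lower ran from 0 to 2 as each of the 12 libraries was left out. The call for TE_homo_70230 was lost without replicate 1 or 2 of the set 1 controls and without replicate 2 or 3 of the set 2 controls. Whether the sets differed in genetic background, growth or sequencing is not given in the sources used here, and such a difference cannot be told apart from the set.

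Genes that act in the silencing of transposons were listed by symbol, to be read beside the copies. They include DNA methyltransferases, subunits of the RNA polymerases that serve RNA-directed DNA methylation, Argonaute and PIWI proteins, Dicer proteins, MORC proteins and histone H2A.W. Of 30 such genes in the tables, 26 were tested in set 1, where 8 rose and 2 fell, beside 26.5% of all 12633 genes that rose and 24.1% that fell. In set 2, 24 were tested, 5 rose and 3 fell, beside 20.4% and 17.4% of 12744 genes. The shares that rose, 30.8% in set 1 and 20.8% in set 2, lie near those of all genes. The shares that fell, 7.69% in set 1 and 12.5% in set 2, are below them. MpH2A.W.1, MpNRPE1b, MpPIWIa and MpPIWIb had at most 5 counts in any set 1 control and reached the count filter there through Mpez1-1 libraries. MpH2A.W.1 and MpNRPE1b likewise reached it in set 2 through Mpez1-2 libraries. They would not have been tested at their control levels, which limits what the shares that rose say about the list. The median log2 fold change of the list was 0.11 in set 1 and -0.01 in set 2, and that of all genes -0.02 and 0.00.

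3 of the listed genes rose in both sets. MpH2A.W.1, a histone variant of heterochromatin, had 15, 13 and 15 counts in Mpez1-1 and 13, 16 and 14 in Mpez1-2 libraries, against 0 in all 6 controls (edgeR adjusted p = 0.000591 in set 1 and 0.000143 in set 2). MpNRPE1b, a copy of the largest subunit of RNA polymerase V, had 22, 21 and 23 counts in Mpez1-1 libraries, against 2, 2 and 2 in set 1 controls, and 22, 39 and 28 in Mpez1-2 libraries, against 2, 7 and 1 in set 2 controls. Its log2 fold changes were 3.82 (SE 0.38) and 3.30 (SE 0.51). MpMORC2 rose by 0.52 (SE 0.11) and 0.32 (SE 0.11) on the log2 scale. MpPIWIa and MpPIWIb, members of the Argonaute superfamily named for their part in silencing transposons in animals, rose in set 1. MpPIWIa had 85, 100 and 162 counts in Mpez1-1 libraries, against 1, 2 and 5 in set 1 controls, and at most 2 counts in any set 2 library. MpNRPD1, the largest subunit of RNA polymerase IV, rose in set 1 by 1.10 (SE 0.10) on the log2 scale and did not pass in set 2, at 0.27 (SE 0.15). The maintenance methyltransferase MpMET passed in neither set, nor did MpCMTa and MpDNMT3a. MpDRMa and MpDNMT3b rose in set 2 only, by 0.37 (SE 0.09) and 0.27 (SE 0.09) on the log2 scale. The chromatin remodeller MpDDM1 fell in set 2, with a log2 fold change of -0.48 (SE 0.15, adjusted p = 0.0247 by edgeR), and was at -0.11 (SE 0.22) in set 1. MpAGO4b and MpSUVHb, tested in neither set, had 0 counts in all 6 controls and at least 1 in every double mutant library. MpCMTb, also untested, had at most 1 count in any control and at least 2 in every double mutant library. MpDRMb, untested as well, had at most 2 counts in any library. Whether any of these genes bears on the copies was not tested.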

How the data were processed

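Directional libraries of polyadenylated RNA from 12 thallus samples were read as deposited: per library 2 tables of raw counts, each with 19441 genes and 89262 TE copies, that the authors made. The submitters' processing notes name Trim Galore and STAR; which counter and build were used, and how reads matching several copies were treated, is not given in the sources used here. A read shared by near-identical copies can have been dropped, assigned to 1 of them or counted at several. The level of a single copy of a family, and the number of its copies that were read, are therefore uncertain. Gene symbols were matched by locus tag through a reference table of assembly MpTak2_v7.1, where 30 of 31 listed silencing genes were found in the files.

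From the counts, edgeR 4.0.16 in R 4.3.3 gave quasi-likelihood tests with Benjamini-Hochberg adjustment, separately over TE copies, families, superfamilies, class sums and genes, with a threshold of 0.05. Copies below filterByExpr's minimum count of 10 were left out. TMM factors came from the genes and TE copies of the first tables and scaled both kinds of table. Each set was fitted on its 6 libraries; a fit of 12 libraries gave the difference between the sets and the contrast of controls. Pooled ratios have exact 95% intervals, and folds against groups at 0 use a floor of 3 counts; both cover counting error only. The procedure was also run on simulated counts with known changes in rows that had passed the filter. Rises from silence in controls were not simulated, so that run does not bear on copies silent in controls. Alternatives were DESeq2 1.42.0, other scalings, no filter, a replicate block, summed tables and left-out libraries.

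Named copies and families were those called in a set or in both, the most abundant of each superfamily, and those whose change differed between the sets. TE_homo_70354, TE_homo_61902, TE_homo_68925, TE_homo_75506, TE_homo_24515 and the copies silent in controls were picked after their values were seen. The members and the gene lists were chosen with earlier results of these data known. The labels call the libraries biological replicates; p-values measure the spread between 3 libraries a group.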

Additional observations from a re-analysis of the deposited data

Results flagged for a closer look

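The change of TE_homo_26525 in the second tables differed between the sets, by -0.99 on the log2 scale for set 2 minus set 1 (SE 0.32, adjusted p = 0.0483 by edgeR's quasi-likelihood test). It was 0.68 in set 1 and -0.27 in set 2, and neither passed on its own. Its family TE_00000788, which holds it and shares its reads, differed by -0.87 (SE 0.26, adjusted p = 0.032 by edgeR). Both calls were lost with no filter on low counts, with a replicate block and with the second tables scaled on their own totals.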

How the results depend on the processing

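In the first tables the sum over members rose whichever library was left out, by 0.76 to 1.09 on the log2 scale in set 1 and 1.09 to 1.26 in set 2. With both tables of a library summed it was 0.37 in set 1 and 0.13 in set 2 and passed in neither; 1 copy and 1 family then fell in set 1, and 4 families rose in set 2. Set against the second tables, the summed tables had 7 copies and 5 families that rose in set 1, where the second alone had 0 and 1, and 2 copies and 4 families in set 2, where it had 0 and 0. The DTA sum of the second tables in set 1 turned to 0.43, against 0.00. A fit of all 12 libraries, and likewise no filter, gave 4 copies and 4 families that rose in set 2 of the first tables, where the fit of 6 gave 2 and 2.

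Leaving out single libraries gave, for the first tables, 5 to 6 copies and 4 to 6 families that rose in set 1, and 2 to 4 copies and 2 to 4 families in set 2. For the second tables it gave 0 to 1 copies and 0 to 3 families that rose and 1 of each that fell in set 1. The difference between the sets there was called for 0 copies and 0 to 1 families. Between controls 4 to 7 copies were higher and 0 to 2 lower in the second tables, and 0 to 1 lower in the first. Silencing genes numbered 7 to 8 that rose and 1 that fell in set 1, and 3 to 4 that rose and 1 to 3 that fell in set 2.

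In set 1 only 1 silencing gene fell under DESeq2's test, its size factors, TMM over genes only and the replicate block. In set 2, 3 rose and 1 fell under DESeq2, 3 rose in the fit of 12 libraries and 5 fell without a filter. In the second tables, DESeq2's size factors gave 2 families that rose in set 1, and the fit of 12 libraries gave 1 copy and 2 families in set 1 and 1 family in set 2. With no filter 1 copy rose and 0 fell in set 1, 1 rose in set 2, 0 copies and 0 families differed between the sets, and 4 copies were higher in set 2 controls. With these tables on their own totals, the member sum fell in set 2 (-0.28, adjusted p = 0.0113 by edgeR), as did 1 copy and 2 families, no copy or family differed between the sets (0 of each), and 1 copy was lower in set 2 controls, as under DESeq2. The cause of these changes was not tested.

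Same-numbered libraries of set 1 did not deviate together (r between -0.00882 and 0.0635 over genes and TE copies). In set 2 they did over the 315 TE copies tested (r of 0.121, 0.139 and 0.158, and at most 0.00083 for other pairs), though over genes and TE copies r was 0.0584 to 0.0868, so a pairing by number is possible there. Within set 2 the replicate block changed no call on members: the first-table sum was 1.19, with 2 copies and 2 families that rose. The replicate block gave 0 copies and 0 families whose change differed between the sets in the second tables, where the fit without it gave 1 and 1. Few reads limit all of this: most members could not be tested, and 9 copies reached 10 counts in a library of the first tables.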
